A study of Mus musculus with 2 samples.

Results

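Chaperone and unfolded protein response genes were followed in mouse embryonic fibroblasts (MEFs) with and without normal DNA methylation. The set was a written list of 43 genes, chosen by what their products do and with earlier results of these data known. It holds 15 cytosolic and nuclear chaperones, 2 heat shock transcription factors, 3 mitochondrial chaperones, 15 endoplasmic reticulum (ER) chaperones and 8 sensors, factors and targets of the unfolded protein response. Of the 43 genes, 41 had an entry among the 29126 in the deposited table, and 40 could be compared. Hspa1a and Hspa1b had no entry under these symbols, so only their promoter windows were examined. Pdia6 carried the status FAIL with both values at 0. Strand-specific mRNA-seq was done on MEFs of the genotypes Dnmt1+/+ and Dnmt1-/-, with 1 library for each; the labels name no treatment. The cells called Dnmt1-/- carry 2 copies of a hypomorphic allele of Dnmt1, the maintenance DNA methyltransferase, and both lines are described as null for trp53, which encodes p53. The strain is labelled unknown. With 1 cell line and 1 library per genotype, the effect of the genotype and any other difference between the lines cannot be told apart. In such bulk RNA, fewer cells of a type and less RNA per cell cannot be told apart either.

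Chaperones bind unfolded or misfolded proteins and help them to fold. Each compartment has its own set: Hsp70 and Hsp90 proteins with their J-domain partners in the cytosol, Hsp60 and Hsp10 in mitochondria, and BiP, GRP94, the lectin chaperones and the protein disulphide isomerases in the ER lumen. The cytosolic set is induced by heat shock factors. The ER set is induced by the unfolded protein response, in which the sensors IRE1, PERK and ATF6 act through the transcription factors XBP1, ATF4 and cleaved ATF6. Fibroblasts secrete large amounts of collagen and other matrix proteins, which are folded and modified in the ER.

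Abundance is given as RPKM, the read number of a transcript scaled to its length and to all mapped reads of the library, so levels of different genes can be set side by side. A change is log2(RPKM + 0.1) in Dnmt1-/- minus that in Dnmt1+/+ MEFs, a scale that understates changes of genes with low RPKM. An entry was compared if it had a gene symbol, the status OK and an RPKM of at least 1 in either library, and 11244 entries met this. Their median change was -0.14, and changes are to be read against this shift. A gene was called higher or lower where its RPKM differed by more than 2-fold on this scale. The file holds no read counts, so the depth behind a value is unknown, and without replicates no value has an error and no test was made. Dnmt1 itself was at 65.2 RPKM in Dnmt1+/+ and 14.5 in Dnmt1-/- MEFs. RNA assigned to Trp53, the p53 gene, was present in both libraries, at 18.6 and 19.9 RPKM, and the table does not show whether it holds the disrupted part. All 8 fibroblast markers examined reached 1 RPKM, while the 4 epithelial and 4 endothelial markers did not, with values of at most 0.558. Of 4 immune markers Ptprc and Emr1 were listed at 0 in both libraries, and Cd68 was at 0.596 and 3.63 RPKM. Thy1 was at 4.84 and 0.129 RPKM, S100a4 at 289.6 and 1262, and the part of such differences between the lines in the results below was not tested.

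Among the 40 genes compared, 2 were called higher in Dnmt1-/- MEFs (Cryab and Ern1) and 4 lower (Trib3, Hsp90b1, Herpud1 and Hspb8). Over all entries kept, 8.47% were called higher and 10.9% lower, so the share of these genes that was called was not above the background. With the median change subtracted, 3 of the 40 were called higher and 2 lower, against 9.71% and 8.58% of all entries. Most of the 40 are strongly expressed, and 36 had a mean RPKM of at least 10. At that level 4.73% of all entries were called higher and 5.04% lower, against 1 and 4 of the 36, and with counts this small the shares are a description only. The median change of the 40 genes was -0.31. The groups differed in their medians, which were 0.11 for the 13 cytosolic and nuclear chaperones, -0.41 for the 14 ER chaperones and -0.60 for the 8 unfolded protein response genes.

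**Figure D1:**
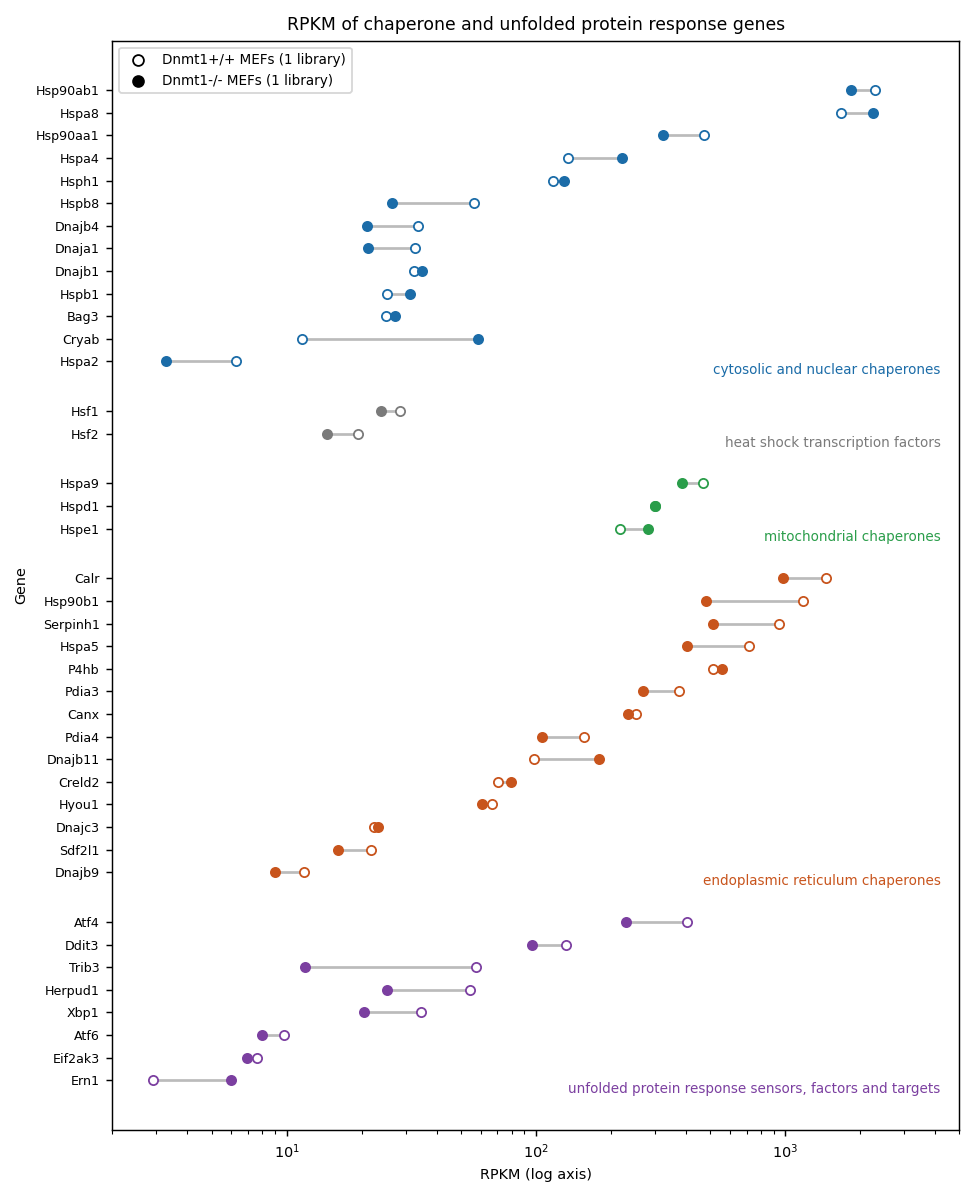
RPKM (log axis) of each of the 40 genes compared, in Dnmt1+/+ MEFs (open circles) and Dnmt1-/- MEFs (filled circles), 1 library each, grouped by compartment. Hsp90b1, Serpinh1, Hspa5 and Calr lie further left in Dnmt1-/-, as does Trib3, whereas Cryab moves from 11.6 to 58.5 RPKM.

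The ER chaperones had a lower median change than all genes, at -0.41 against -0.14, and a lower summed level in Dnmt1-/- MEFs. Of the 14 compared, 10 had a negative change and 4 a positive one, and 8 were below the median change of all genes. The summed RPKM of the 14 went from 5887 in Dnmt1+/+ to 3910 in Dnmt1-/- MEFs, a ratio of 0.664. The 4 genes with the highest RPKM in Dnmt1+/+ accounted for 4301 of this sum in Dnmt1+/+ and 2375 in Dnmt1-/-. The other 10 genes summed to 1586 and 1535 RPKM. This split by level was chosen after the values were seen. Ranking by Dnmt1+/+ alone favours genes that are lower in Dnmt1-/-. The split therefore does not show that the difference lies in abundant genes. In Dnmt1-/- MEFs P4hb, at 557.4 RPKM, ranked above Serpinh1, Hsp90b1 and Hspa5.

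Many ER chaperone genes are known to carry the ER stress response element (ERSE), a site bound by ATF6 and XBP1 together with the CCAAT-binding factor NF-Y. It was searched as CCAAT and CCACG with 9 bases between them, on both strands, in the RefSeq promoter windows of GRCm38.p6, each covering 250 bases before and 50 after an annotated start. A window was given for 35 of the 43 genes. Hspa8, Hsp90aa1, Hsp90ab1, Cryab, Hsf1, Hspa9, Hyou1 and Atf6 had none. ERSE was found in 7 of the 14 ER chaperone genes with a window, and in 0.119% of all 32851 windows. No window of the other 4 groups held it. Shares over all windows, here and below, count windows and not genes, as the 32851 windows belong to 27025 genes. They were not matched to the listed genes for expression or CpG content. The ERSE matches are shown because the genes that hold them include the most abundant ER chaperones. Each sequence is printed on the strand on which the motif reads as spelled, with CCAAT and CCACG in capitals.
Hspa5, chr2:34772019-34772049, plus strand: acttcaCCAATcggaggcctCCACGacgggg
Hsp90b1, distal, chr10:86705632-86705662, minus strand: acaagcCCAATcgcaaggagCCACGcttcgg
Hsp90b1, proximal, chr10:86705527-86705557, plus strand: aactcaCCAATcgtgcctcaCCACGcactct
Calr, chr8:84847069-84847099, plus strand: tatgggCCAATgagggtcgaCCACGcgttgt
Canx, chr11:50325794-50325824, minus strand: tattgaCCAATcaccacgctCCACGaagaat
Pdia6, chr12:17266485-17266515, plus strand: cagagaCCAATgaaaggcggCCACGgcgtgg
Dnajc3, chr14:118937821-118937851, plus strand: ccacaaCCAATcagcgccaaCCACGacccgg
Creld2, chr15:88819514-88819544, minus strand: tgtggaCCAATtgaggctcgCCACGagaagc

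Hsp90b1 was the one gene with 2 matches, beginning 212 and 107 bases upstream of its start. In Hspa5 the match began 65 bases upstream. A shorter relative, ERSE-II (ATTGG and CCACG with 1 base between), which was added after the other motifs had been searched, was found in 0.0365% of all windows. Among the 43 genes it was in Herpud1, beginning 52 bases upstream, and in Dnajb11, beginning 7 bases after the start. It is printed for Dnajb11 as the gene with the highest change of the ER group, with ATTGG and CCACG in capitals.
Dnajb11, chr16:22857846-22857868, plus strand: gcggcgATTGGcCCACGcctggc
The UPRE motif TGACGTGG was in 0.676% of all windows and in none of the 35 genes. A match is a run of letters and not proof of a site. The 6 compared ER chaperones with ERSE had changes from -1.30 to 0.17 with a median of -0.34, and the 7 with a window and no ERSE from -0.89 to 0.86 with a median of -0.45. The ranges overlapped, so an exact match in the window did not separate the genes that were lower from the rest. The search asked for exact letters within the window, so a gene without a match may still hold an element. Dnajb11, with its ERSE-II match, is among the 7 without ERSE. Whether such elements bear on the changes was not tested.

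Hsp90b1 encodes GRP94, the Hsp90 of the ER, and lies at 86152954 to 86168254 on chromosome 10 of mm9, minus strand. The Dnmt1+/+ library had 1180.0 RPKM of it and the Dnmt1-/- library 479.6, a change of -1.30 or 2.46-fold lower. It was the one ER chaperone called lower, and it was past 2-fold also relative to the median of all genes. Hspa5 encodes BiP, the Hsp70 of the ER, which also holds the stress sensors inactive. It lies at 34627490 to 34632051 on chromosome 2, plus strand. Its level went from 714.4 RPKM in Dnmt1+/+ to 403.3 in Dnmt1-/-, a change of -0.82. In rank among the 11244 entries, Hsp90b1 went from 24 to 80 and Hspa5 from 40 to 101.

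The cytosolic Hsp90 genes had changes of -0.33 (Hsp90ab1) and -0.55 (Hsp90aa1), and the cytosolic Hsp70 genes of 0.42 (Hspa8) and -0.91 (Hspa2, at a low level). The ratio of Hsp90b1 to Hsp90ab1, the constitutive Hsp90 of the cytosol, was 0.513 in Dnmt1+/+ and 0.262 in Dnmt1-/- MEFs. The ratio of Hspa5 to Hspa8, the constitutive cytosolic Hsp70, was 0.427 and 0.180. Hspa8 shares much of its sequence with other loci, as given at the end, and its level is less certain.

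The partners of BiP went different ways. Dnajb11 (ERdj3), a J-domain protein that delivers unfolded chains to BiP, was at 98.4 RPKM in Dnmt1+/+ and 179.0 in Dnmt1-/- MEFs. Its change of 0.86 was the highest of the ER group, and relative to the median of all genes it was just past 2-fold. The ratio of Dnajb11 to Hspa5 thus went from 0.138 to 0.444. Dnajb9 (ERdj4), which acts in degradation, was at 11.7 and 8.99 RPKM, and Dnajc3 (p58IPK), a J-domain protein that also inhibits PERK, at 22.4 and 23.2. Hyou1, the large Hsp70 relative that exchanges nucleotide on BiP, was at 66.8 and 60.6. Sdf2l1, a component of the ER chaperone complexes, was at 21.9 and 16 RPKM, and Creld2, a protein induced by ER stress, at 70.2 and 79.1.

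The lectin chaperones bind glycoproteins through their sugars. Calr (calreticulin), the soluble one, was at 1458 RPKM in Dnmt1+/+ and 980.4 in Dnmt1-/- MEFs, a change of -0.57. Canx (calnexin), anchored in the membrane, was at 251.6 and 234.8, a change of -0.10 that lay close to the median of all genes. Pdia3, the disulphide isomerase that works with both, was at 374.3 and 270.2 RPKM. Its locus also holds Catsper2, at 1.13 and 0.860. Pdia4 was at 156.7 and 105.6, in an entry that it shares with the microRNA gene Mir704. P4hb, which is a disulphide isomerase and a subunit of collagen prolyl hydroxylase, differed from these, with 512.2 RPKM in Dnmt1+/+ and 557.4 in Dnmt1-/-.

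Serpinh1 encodes Hsp47, the chaperone particular to procollagen, and lies at 106493885 to 106501740 on chromosome 7, minus strand. It was at 948.3 RPKM in Dnmt1+/+ and 512.1 in Dnmt1-/- MEFs, a change of -0.89. Of the collagen genes used as fibroblast markers, Col1a2 was called lower, with 1241 and 475.9 RPKM. Col1a1, within 2-fold like Serpinh1, was at 1448 and 897.7. The 11 genes of a list of collagen-modifying enzymes of the ER did not follow as a group. Their median change was 0.22, with 1 called higher and 2 lower, where 8.47% and 10.9% of all entries were. Lepre1, a prolyl 3-hydroxylase, was at 33.8 and 10.5 RPKM and its relative Leprel1 at 6.52 and 3.16. Leprel2, in a joint entry with Gpr162, was at 15.8 and 38.7.

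Other folding factors of the ER, 28 of which could be compared, had a median change of -0.17. Of these 28 genes none was called higher and 4 were called lower, where 8.47% and 10.9% of all entries were. Most of the 28 had a mean RPKM of at least 10, and of all entries at that level 4.73% were called higher and 5.04% lower. With counts this small the shares are a description only. Fkbp11, a prolyl isomerase of secretory cells, was at 37.6 RPKM in Dnmt1+/+ and 10.1 in Dnmt1-/-. Prdx4, the ER peroxiredoxin, was at 185.6 and 65.6. Tmx3, a membrane-bound disulphide isomerase, was at 24.4 and 9.33, and Ero1l, an oxidase that recharges the isomerases, at 39.6 and 19.5. With the median change subtracted, Ero1l was within 2-fold.

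Of the 8 unfolded protein response genes 7 had a negative change, 6 lay below the median of all genes, and the one with a positive change was a sensor. Ern1 (IRE1) was at 2.90 RPKM in Dnmt1+/+ and 5.98 in Dnmt1-/-, a change of 1.02 at the lowest level of the 40 genes in Dnmt1+/+. With a pseudocount of 1 its change was 0.84 and it was not called. Eif2ak3 (PERK) was at 7.59 and 6.94 RPKM and Atf6 at 9.77 and 7.99, changes of -0.13 and -0.29. Xbp1, whose RNA is spliced by IRE1, was at 34.5 and 20.5 RPKM, a change of -0.75. The table gives 1 value for Xbp1 and does not distinguish its spliced form.

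Atf4 encodes the transcription factor whose translation PERK promotes, and lies at 80085614 to 80087970 on chromosome 15, plus strand. It was at 405.3 and 230.2 RPKM in the Dnmt1+/+ and Dnmt1-/- libraries, a change of -0.82. Ddit3 (CHOP), a target of ATF4, was at 131.8 and 96.9 RPKM. Ddit3 shares its assembled locus with Mars, which was at 97.1 and 75.8. The downstream genes Trib3 and Herpud1 had lower changes than the factors. Trib3, a pseudokinase induced by ATF4 and CHOP, located at 152163158 to 152169768 on chromosome 2, minus strand, was at 57.4 RPKM in Dnmt1+/+ and 11.9 in Dnmt1-/-. Its change of -2.26 was the lowest of the 40 genes, 4.84-fold lower, at percentile 2.9 of the changes of all entries. Herpud1, a membrane protein of ER-associated degradation, was at 54.6 and 25.2 RPKM, a change of -1.11. With the median change subtracted, Herpud1 was at -0.97 and no longer called.

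Other genes of the PERK and ATF4 branch also had mostly negative changes. Of 21 such genes that are not among the 43, all could be compared, and 9 were called lower and 2 higher, where 10.9% and 8.47% of all entries were. The list was drawn up with earlier results of these data known, so this count is a description and no independent support. The count of lower calls was 8 with a pseudocount of 1 or relative to the median of all genes. Their median change was -0.82, with 17 negative and 4 positive changes. Like PERK, 3 kinases of the list phosphorylate eIF2 alpha. Eif2ak4 (GCN2), which senses amino acid shortage, was at 15 RPKM in Dnmt1+/+ and 7.45 in Dnmt1-/-, just past 2-fold. Eif2ak1 (HRI), which senses haem, was at 18.6 and 38.4, and Eif2ak2 (PKR), which senses double-stranded RNA, at 188.5 and 129.5. The factors Atf5, with 110.7 and 39.2 RPKM, and Atf3, with 10.2 and 2.92, were lower, and Cebpb, with 36.5 and 47.0, was within 2-fold.

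Target genes of varied function were also called lower. Vldlr, a lipoprotein receptor, was at 13 RPKM in Dnmt1+/+ and 1.5 in Dnmt1-/-, a change of -3.04. Ddit4, an inhibitor of mTORC1, was at 61.9 and 8.68, and Sesn2, a stress-induced sestrin, at 13.6 and 3.56. Chac1, which degrades glutathione, was at 27.3 and 9.48, and the asparagine synthetase gene Asns was at 154.3 and 66.2. Pck2, the mitochondrial form of the gluconeogenic enzyme PEPCK, was at 148.3 and 46.5. Not all members of the list were lower. Ppp1r15a (GADD34), which reverses the phosphorylation of eIF2 alpha, was at 11.2 and 12.0 RPKM, Nupr1 at 60.8 and 57.9, and Stc2 at 1.87 and 3.96.

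**Figure D2:**
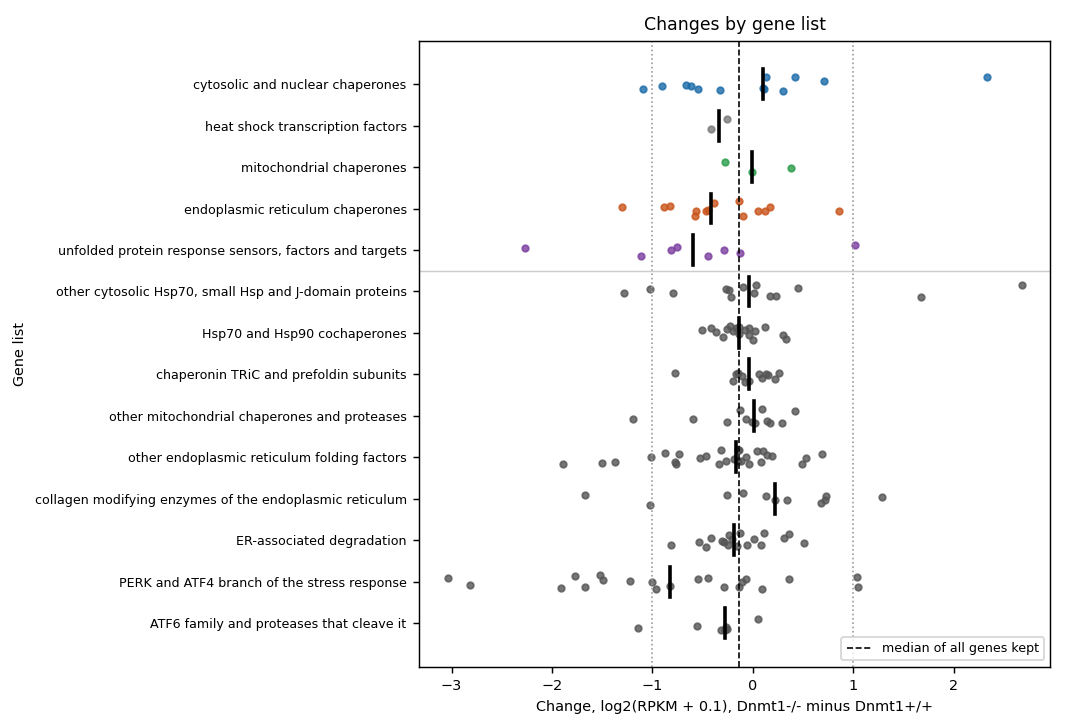
Change on the log2(RPKM + 0.1) scale, Dnmt1-/- minus Dnmt1+/+, of each gene (points) in the 5 groups of the 43 genes (colours, above the line) and in 9 further lists (grey). Thick bars are list medians, the dashed line is the median of all 11244 entries at -0.14 and dotted lines mark 2-fold; the PERK and ATF4 list has the lowest median, -0.82.

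ATF4 binds CARE elements, composite sites of C/EBP and ATF half-sites. The core TGATGNAA was searched on both strands and was present in 3.97% of all windows. Among the 43 genes it was found in Herpud1 and Trib3, the pair with the lowest changes of their group. In the PERK and ATF4 list it was in 6 of 20 genes with a window. These were 5 of the 9 genes called lower, none of the 2 called higher and 1 of the 9 within 2-fold. Many genes of the list were put there as known targets of ATF4, so CARE cores in it are no independent finding. The matches are shown with the fixed letters of the motif in capitals, on the strand on which it reads as spelled.
Trib3, chr2:152344033-152344052, plus strand: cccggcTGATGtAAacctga
Herpud1, chr8:94386311-94386330, minus strand: gcgggcTGATGcAAcccgcc
Vldlr, chr19:27216814-27216833, minus strand: gagcgcTGATGcAActattg
Atf3, chr1:191183430-191183449, plus strand: acttggTGATGcAAgtgcga
Pck2, chr14:55540157-55540176, minus strand: agatacTGATGtAActttga
Chac1, chr2:119351043-119351062, minus strand: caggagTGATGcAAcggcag
Asns, chr6:7693219-7693238, minus strand: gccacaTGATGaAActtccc
Nupr1, chr7:126625567-126625586, plus strand: cctgtcTGATGcAAtctggc

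In Herpud1 the CARE core lay 112 bases upstream of the start, and its ERSE-II match, printed here with the fixed letters in capitals, lay nearer to it.
Herpud1, chr8:94386371-94386393, plus strand: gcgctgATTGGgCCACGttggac
The CARE core of Trib3 began 14 bases after the annotated start, in the transcribed part. Nupr1 was the gene of the list that held the core without a difference past 2-fold.

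**Figure D3:**
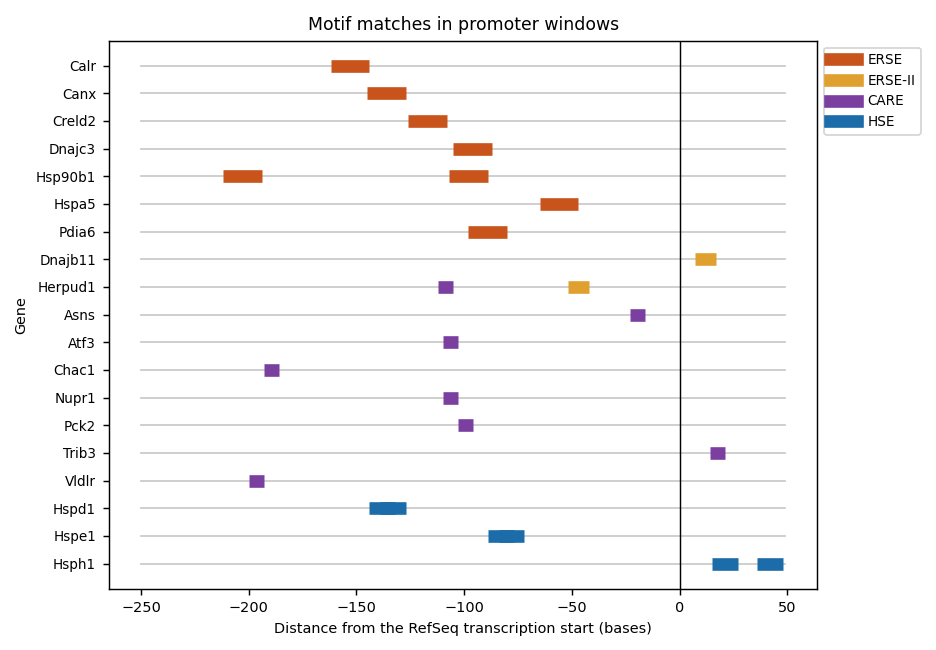
Position of ERSE, ERSE-II, CARE and HSE matches (coloured blocks) in bases from the RefSeq transcription start (vertical line) in the windows of the 43 genes and of the PERK and ATF4 list; grey lines are windows from 250 bases before to 50 after the start. Hsp90b1 holds 2 ERSE matches, and the 2 blocks of Hsph1 are 1 site seen from 2 annotated starts.

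The lists of ER-associated degradation and of the ATF6 family lay closer to the median of all genes than the PERK and ATF4 list. No list of IRE1 and XBP1 targets was made, so the branches of the response were not compared. Of 20 listed genes of ER-associated degradation, 18 could be compared, with a median change of -0.18. None of the 18 was called, where 8.47% of all entries were called higher and 10.9% lower. The lowest was Vcp, the ATPase that extracts substrates from the membrane, with 140.4 RPKM in Dnmt1+/+ and 79.6 in Dnmt1-/-. Among 7 genes of the ATF6 family and the proteases that cleave it, the median was -0.28. Mbtps2 (site-2 protease) was called lower, with 7.34 and 3.26 RPKM, and not with a pseudocount of 1.

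The cytosolic and nuclear chaperones had no common direction. Of the 13 compared, 7 had a positive and 6 a negative change. Of these 13 genes 1 was called higher and 1 lower, where 8.47% and 10.9% of all entries were. Their summed RPKM was 4921 in Dnmt1+/+ and 4971 in Dnmt1-/-. The median of the ER chaperones was below that of this group (a difference of -0.52), and this difference lay between -0.52 and -0.49 under 8 other settings. Most of these settings could hardly change it, as centring shifts both medians alike and the RPKM filters removed no member. The cytosolic median is the value of 1 gene, Dnajb1, and the next lower change was -0.33 (Hsp90ab1). It can therefore depend on which genes are listed. Hsp90ab1, with 2300 and 1829 RPKM, ranked 2 among all 11244 entries in Dnmt1+/+ and 8 in Dnmt1-/-. Hspa8 was at 1673 and 2243, and ranked 11 and 4. Hsp90aa1, the inducible Hsp90, was at 472.3 and 323.5.

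The constitutive and inducible partners of Hsp70 were likewise divided. Hspa4, an exchange factor of the Hsp110 family, was at 135.0 RPKM in Dnmt1+/+ and 221.4 in Dnmt1-/-, a change of 0.71. Its relative Hsph1 (Hsp105), which is induced by heat, was at 117.6 and 129.2. Dnajb1 (Hsp40), the J-domain protein most typical of heat shock, was at 32.6 and 35.1. Dnajb4, another J-domain protein, was at 33.5 and 21.1. Dnaja1, also of this class, was at 32.7 and 21.3, and its locus is shared with Smu1, at 43.9 and 30.2. Bag3, a cochaperone of Hsp70 and of the small heat shock proteins, was at 25.1 and 27.2. Hspa2, the Hsp70 abundant in testis, was at 6.25 and 3.29, a change of -0.91. The heat shock factors were within 2-fold, Hsf1 with 28.6 and 23.9 RPKM and Hsf2 with 19.4 and 14.5.

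The small heat shock proteins, which hold unfolded proteins without using ATP, included the gene with the highest change. Cryab (alpha B-crystallin), at 50560863 to 50564738 on chromosome 9 (plus strand), was at 11.6 RPKM in Dnmt1+/+ and 58.5 in Dnmt1-/- MEFs. This 5.07-fold difference, a change of 2.33, lay above those of all other genes of the list. Hspb8, at 116858500 to 116872873 on chromosome 5 (minus strand), went the other way, with 56.7 and 26.6 RPKM. Its change of -1.09 became -0.95 with the median change subtracted, and it was then not called. Hspb1 (Hsp25) was at 25.2 and 31.2. Hspb8 had the lowest CpG content of the 35 genes with a promoter window, with an observed over expected CpG ratio of 0.446. The median ratio was 0.844 for the 35 genes and 0.770 for 7979 genes kept in the expression table. Of the other genes called, Hsp90b1 had a ratio of 0.829, Herpud1 0.843, Trib3 0.861 and Ern1 0.785, and Cryab had no window. A link between CpG content and change was not tested.

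Of 19 other cytosolic Hsp70, small heat shock and J-domain genes, 14 could be compared, with a median change of -0.04. Of these 14 genes 2 were called higher and 2 lower, where 8.47% and 10.9% of all entries were. Dnaja4 had 0.641 RPKM in Dnmt1+/+ and 4.65 in Dnmt1-/- MEFs, and Hspa1l, an Hsp70 gene expressed mainly in testis, at 4.41 and 14.3. Dnajb5 was at 2.99 and 1.17, and Hspb11 at 20.8 and 10.2, and neither was called with a pseudocount of 1. None of 18 cochaperones of Hsp70 and Hsp90 was called, and none of the 13 subunits of the chaperonin TRiC and of prefoldin that could be compared. Their medians were -0.14 and -0.04, and all 18 cochaperones lay between -0.51 and 0.33.

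The mitochondrial chaperones differed little between the libraries. Hspd1 (Hsp60) had 301.4 RPKM in Dnmt1+/+ and 300.5 in Dnmt1-/- MEFs, and Hspe1 (Hsp10), the lid of the Hsp60 chamber, at 216.6 and 281.2. Hspa9 (mortalin), the Hsp70 of mitochondria, was at 466.3 and 384.5. Hspd1 and Hspe1 lie head to head on chromosome 1, where their annotated bounds overlap at the starts, and whether reads were assigned by strand is not stated. Heat shock elements (HSE) were searched as 3 alternating GAA and TTC units with 2 bases between them, and were in 0.603% of all windows. They were found in 3 of the 35 genes, namely Hsph1, Hspd1 and Hspe1. The search asked for 3 exact units within the window, so a gene without a match may still hold an element. In Hspd1 and Hspe1 it is the same site of their common promoter, shown with 3 units in capitals.
Hspe1, chr1:55088053-55088077, plus strand: ggtccgTTCtaGAAccTTCcggaag
Of 12 other mitochondrial chaperones and proteases 1 was called lower, the protease Yme1l1, with 42.1 and 18.4 RPKM, and the median was 0.01. Over all entries 10.9% were called lower.

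Highly expressed genes often have close copies in the genome, such as processed pseudogenes, with which 50-base reads can be shared. For 41 of the genes the longest GENCODE coding transcript was cut into all stretches of 50 bases, and each was looked for in the NCBIM37 genome (mm9) outside the gene. In 26 genes no stretch was found elsewhere, and in 32 genes under 5% were. In 6 genes more than 20% of stretches had an identical copy elsewhere, and all 6 are cytosolic or mitochondrial. The share was 75.7% for Hspa8, 73.1% for Hsp90aa1, 63.0% for Hspb1, 58.5% for Hspd1, 46.5% for Hspe1 and 25% for Dnaja1. How reads with several positions were assigned is not stated, so the levels and changes of these 6 genes are uncertain. Without them the median of the cytosolic chaperones was again 0.11, that of Hspa9 alone among the mitochondrial chaperones was -0.28, and the summed RPKM of the cytosolic group had a ratio of 0.865 in place of 1.01. The genes called higher or lower are hardly affected, as 1.69% of the stretches of Hsp90b1 and none of those of Cryab, Ern1, Trib3, Herpud1 and Hspb8 were found elsewhere. In the ER group the highest share was 15.4%, for Dnajb9.

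**Figure D4:**
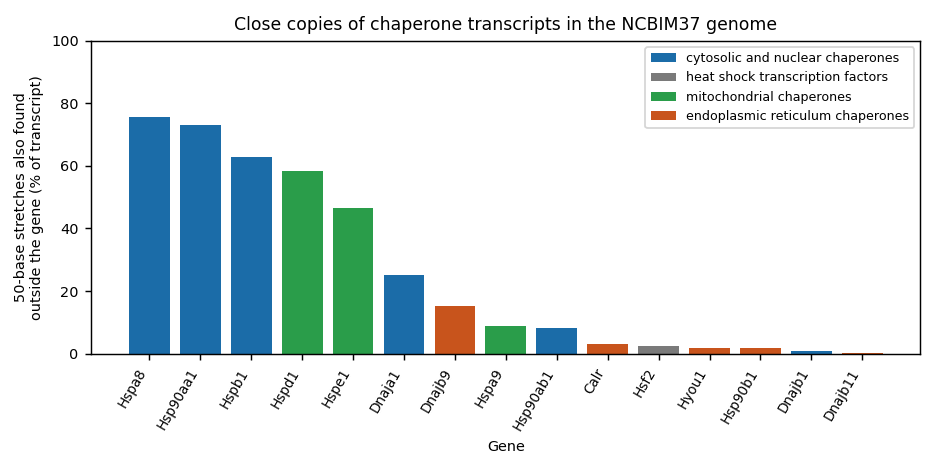
Share of the 50-base stretches of each transcript, in percent, with an identical copy in the genome outside the gene, for the 15 genes where any was found; colours give the compartment. Hspa8 and Hsp90aa1 exceed 70%, while Hsp90b1, Calr and Hyou1 are under 5%.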

How the data were processed

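The libraries were strand-specific, with single-end reads of 50 bp. Per the study's methods, Tophat alignments to mm9 were assembled by Cufflinks, and Cuffdiff gave the RPKM that the authors deposited, in 1 column per library beside a status. Versions, parameters and any scaling beyond mapped reads are not given in the sources used here. The columns wt and ko were taken as Dnmt1+/+ and Dnmt1-/- MEFs, following the abbreviations of the study.

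Entries needed a symbol, the status OK and at least 1 RPKM in either library. Changes are differences of log2(RPKM + 0.1), and calls are changes of more than 2-fold. Lists are described by counts and medians, with no test. Members and lists were chosen with earlier results of these data known. All 43 genes are named, and of each other list up to 4 genes called in each direction; Vcp and the further genes of the PERK and ATF4 list were added after their values were seen. Positions are from GENCODE (NCBIM37, 1-based), promoter windows from RefSeq (GRCm38.p6). The planned comparison of protein sequences was not made. Calculations used Python 3.11.15, numpy 2.4.6, pandas 2.3.3 and matplotlib 3.10.9, and calls, motif and copy searches were tested on made-up data.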

Additional observations from a re-analysis of the deposited data

How the results depend on the processing

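No paired analysis was possible because each genotype has 1 library. For the same reason no replicate could be left out, and the values carry no error. The pseudocount was set to 1 or 0.01 or left out, and the RPKM filter was dropped or put on the mean. Libraries were centred on the median change or scaled to the upper quartile, and entries were limited to 1 per gene without joint entries. The last setting left out Pdia4, whose entry is shared with Mir704, and gave the ER chaperones a median of -0.38. The median of the ER chaperones lay between -0.42 and -0.27, that of the unfolded protein response genes between -0.60 and -0.46, that of the cytosolic chaperones between 0.10 and 0.25, and that of the PERK and ATF4 list, under 3 alternatives, between -0.82 and -0.68. Counts and summed ratios were said to move where they differed by more than 1.5 times, and changes and medians where they shifted by more than 1.5-fold on the log2 scale. With a pseudocount of 1 the members called higher were 1, the genes called lower were 0 among other cytosolic chaperones, 1 among collagen-modifying enzymes and 0 in the ATF6 list, and 1 gene was higher in the PERK and ATF4 list. With the median change subtracted, 3 members were called higher and 2 lower, and 1 gene was called lower each among other cytosolic chaperones and collagen-modifying enzymes. With a threshold of 1.5-fold 4 members were higher and 11 lower, where 14.1% and 23.7% of all entries were. Of 464 recomputed values 450 did not move or change their call by these limits. Much of this was fixed by the settings. Subtracting the median of -0.14 shifts a change by less than the 1.5-fold limit, and the RPKM filters left the changes of all members as they were. The count is therefore no measure of how robust the values are. No value past 2-fold changed sign, but 10 smaller ones did, 8 with the median change subtracted (Hspd1, Canx, Eif2ak3, Hyou1 and the medians of the mitochondrial chaperones, other cytosolic chaperones, cochaperones and TRiC) and 2 with upper quartile scaling (Hspd1 and the mitochondrial median). Leaving out the genes with close copies, which took the cytosolic summed ratio from 1.01 to 0.865, was chosen after seeing the data. The cause of these differences was not tested beyond their construction. Without read counts, how far depth limits the values of low genes such as Ern1 is unknown.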
